A study of Homo sapiens with 7 samples.

Results

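Peaks of 5 chromatin immunoprecipitation sequencing (ChIP-seq) lists were examined at the 5 human genes POLR2A, SUPT5H, TRIM28, OGT and OGA, which encode the precipitated proteins or the enzymes of the sugar mark that was precipitated. A peak was counted when at least 1 of its bases lay in the hg19 span of the gene or in the 5 kb on either side. This gave 79 of the 132744 peaks on chromosomes 1 to 22 and X: 43 SPT5, 13 RNA polymerase II (Pol II), 12 TRIM28, 9 O-GlcNAc and 2 OGA peaks. The windows were set by gene coordinates and not by a threshold on a measured value, although earlier results of these data were known. All libraries were made from BJAB, a line of human B cells grown from a Burkitt's lymphoma, and the labels name no treatment. Pol II was precipitated with 8WG16, SPT5 and TRIM28 each with an antibody to the protein, OGA with the antibody named NCOAT, and O-GlcNAc with RL2. Each target had 1 library and 1 list, so there are no replicates and no test between targets. The 2 IgG libraries, 1 mouse and 1 rabbit, and the genes that mark B cells were not analysed here, and the depth of the 5 libraries is unknown.

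POLR2A encodes RPB1, the largest subunit of Pol II, whose C-terminal heptad repeats are what 8WG16 binds. SUPT5H encodes SPT5, a DSIF subunit that helps to pause Pol II shortly after initiation and travels with it during elongation. TRIM28 (TIF1b, KAP1) acts as a co-repressor brought to DNA by KRAB zinc finger proteins and has also been described as a pausing factor. OGT attaches the O-GlcNAc sugar to proteins of the nucleus and cytoplasm, and OGA (also MGEA5 or NCOAT) is the enzyme that removes it. Levels of the OGT and OGA enzymes are known to be adjusted to the level of the sugar in many cells.

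Pol II, SPT5 and TRIM28 had a peak within 1 kb of the start of all 5 spans, O-GlcNAc at 4 (all but OGT), and OGA only at POLR2A. OGA had 1 more peak, 10.1 kb into the SUPT5H span, and this was by far the higher of the 2. It covered the place where a SUPT5H gene of the length given by RefSeq would start, and with starts placed by that length OGA stood at 2 of the 5, POLR2A and SUPT5H. No OGA peak lay in the windows of OGA, OGT or TRIM28. The genes of the enzyme pair, like the TRIM28 gene, thus had Pol II, SPT5 and TRIM28 at their starts and no OGA peak. Most Pol II peaks have none, since OGA overlapped 6.03% of all Pol II peaks. A missing peak says only that the list has none there, since neither the background nor the depth behind the lists is known.

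At the edges of the windows, the Pol II and SPT5 peaks upstream of POLR2A and an SPT5 peak downstream of TRIM28 reached across the 5 kb limit and were counted. The nearest peaks left out were SPT5 peaks 1301 bp beyond the POLR2A window (fold enrichment 2.90) and 1961 bp beyond the TRIM28 window (2.83).

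**Figure D1:**
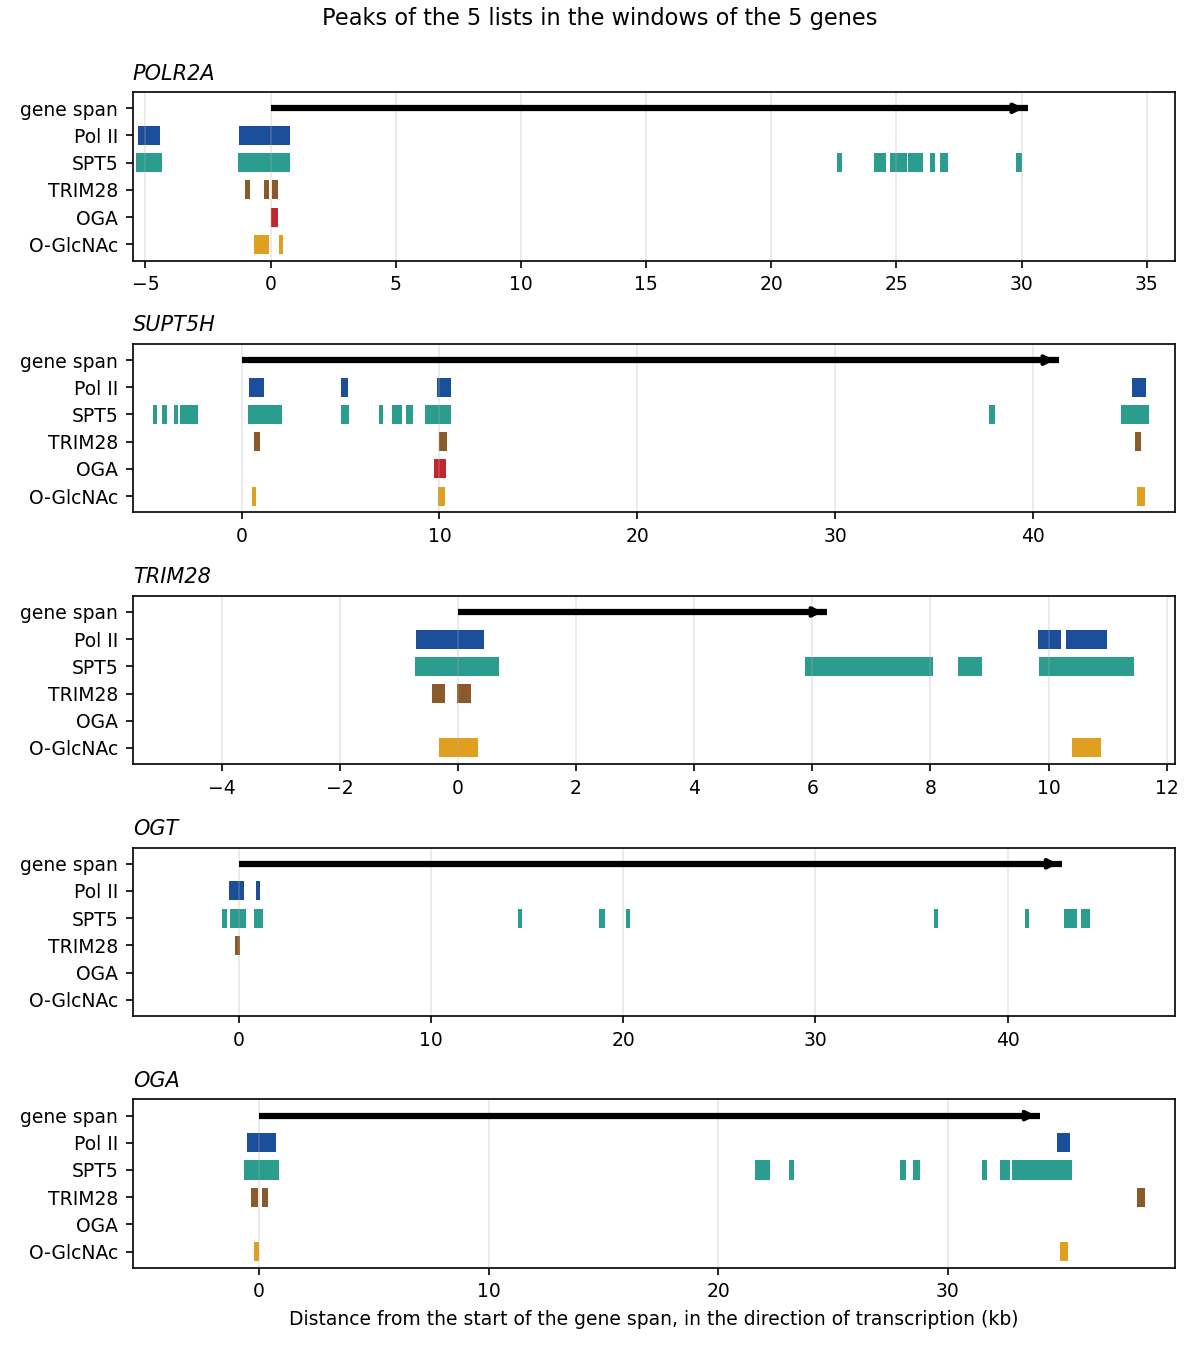
Peaks of the 5 lists (coloured bars, 1 row per list) along each gene window, with distance from the start of the span in kb on the x axis and the span as a black arrow in the direction of transcription. Every gene has Pol II, SPT5 and TRIM28 near its start, whereas the 2 OGA peaks lie at POLR2A and 10.1 kb into SUPT5H.

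Promoter sequences are shown because the peaks of several lists meet at the gene starts. The 250 bases upstream of the RefSeq start were taken from the RefSeq table (GRCh38.p14), which matched 4 of the 5 genes, all but TRIM28. For SUPT5H it lists 2 starts, and the one at the 5′ end of the RefSeq gene was used. Sequences run 5′ to 3′ along the gene, and capitals mark matches to 7 motifs searched on both strands: the GC box GGGCGG, the TATA box TATAAA, the CCAAT motif, the E box motif CACGTG, the ETS family motif CCGGAAG, the YY1 core AAGATGG and GCGCATG, which is part of an NRF1 element.
POLR2A, chr17:7484116-7484365, plus strand: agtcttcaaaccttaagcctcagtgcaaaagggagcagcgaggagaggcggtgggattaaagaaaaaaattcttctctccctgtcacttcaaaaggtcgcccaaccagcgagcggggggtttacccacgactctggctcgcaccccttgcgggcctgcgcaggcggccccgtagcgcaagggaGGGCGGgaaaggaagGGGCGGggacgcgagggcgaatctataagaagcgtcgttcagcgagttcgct
SUPT5H, chr19:39445332-39445581, plus strand: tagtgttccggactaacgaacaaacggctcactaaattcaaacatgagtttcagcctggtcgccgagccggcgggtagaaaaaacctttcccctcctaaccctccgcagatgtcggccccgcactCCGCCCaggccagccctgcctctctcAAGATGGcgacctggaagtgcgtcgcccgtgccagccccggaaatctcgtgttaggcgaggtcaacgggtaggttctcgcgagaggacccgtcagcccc
OGT, chrX:71532854-71533103, plus strand: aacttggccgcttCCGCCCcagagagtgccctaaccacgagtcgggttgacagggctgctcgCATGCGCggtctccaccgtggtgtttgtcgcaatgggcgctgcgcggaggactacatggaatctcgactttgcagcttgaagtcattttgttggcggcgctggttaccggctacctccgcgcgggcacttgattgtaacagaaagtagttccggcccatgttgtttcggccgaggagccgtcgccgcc
OGA, chr10:101818445-101818694, minus strand: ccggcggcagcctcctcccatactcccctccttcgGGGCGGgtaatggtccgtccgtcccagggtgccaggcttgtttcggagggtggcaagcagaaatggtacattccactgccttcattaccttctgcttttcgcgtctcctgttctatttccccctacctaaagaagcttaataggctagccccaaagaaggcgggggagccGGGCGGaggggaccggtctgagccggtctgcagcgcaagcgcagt

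All 4 sequences held a GC box, the site bound by SP1 and related factors, against 42.6% of the 35116 promoters in the table. At POLR2A the matches began 67 and 52 bases before the start, and at OGA 215 and 45 bases before it. SUPT5H had 1 GC box 125 bases before the start and the YY1 core at 99 bases, a 7-letter match found in 3.70% of promoters. OGT had a GC box at 237 bases and the NRF1 part at 188 bases, found in 3.77% of promoters. None of the 4 held TATAAA (10.7% of promoters), CCAAT (32.0%), CACGTG (6.34%) or CCGGAAG (8.52%). GC content was 59.6% at POLR2A and 60.8% at each of the other 3 genes, against a median of 58% over all promoters, and they held 16 to 25 CpG dinucleotides against a median of 11. These matches describe letters in a window, and no peak coordinate was carried over to GRCh38.

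POLR2A (hg19, chromosome 17, 7387685 to 7417935, plus strand) had a single broad Pol II peak over its start, at 7386430 to 7388470. The next protein-coding gene upstream in the RefSeq table is ZBTB4, on the minus strand. Peaks or parts of peaks upstream of the start thus cannot be assigned to POLR2A alone. The Pol II peak was 2041 bp wide, wider than 98.8% of Pol II peaks, and its fold enrichment over the authors' background was 10.9, above 93.8% of its list. The SPT5 peak had nearly the same extent, 2050 bp, with a fold enrichment of 9.89, above 92.3% of SPT5 peaks. Under these broad peaks lay 3 narrow TRIM28 peaks of 195, 220 and 248 bp, with summits 958 bp upstream, 156 bp upstream and 170 bp downstream of the start. Their fold enrichments were 2.69, 2.85 and 2.75, all below the median of the TRIM28 list (3.50). At least 3 TRIM28 peaks lay under 0.729% of all Pol II peaks (95% Wilson interval 0.620% to 0.857%) and under 1.86% of those in the highest of 10 height classes, to which the POLR2A peak belongs. These shares were counted after the 3 peaks had been seen. They were not matched for width, and a wider Pol II peak has room for more narrow peaks. With peaks within 500 bp merged, the TRIM28 peaks with summits 156 bp upstream and 170 bp downstream join into a single peak.

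The OGA peak at POLR2A (7387701 to 7387977) began just inside the gene and was modest, with a fold enrichment of 3.13, below the OGA median of 3.35. Its summit lay at 153 bp, the same base as the Pol II summit, 17 bp from the nearest TRIM28 summit and 79 bp from that of SPT5. O-GlcNAc had a peak on each side of it: a wider one upstream (7387041 to 7387638, fold enrichment 4.51, summit 457 bp upstream of the start) and a narrow one downstream (7388018 to 7388188, fold enrichment 2.70, summit at 412 bp). The gaps between the OGA peak and these were 62 and 40 bp, so that the mark and the enzyme that removes it were both called under 1 Pol II peak without sharing a base. Among all 606 Pol II peaks with both OGA and O-GlcNAc, OGA and O-GlcNAc peaks did not overlap at 28 (4.62%, interval 3.22% to 6.60%), and an OGA peak stood between O-GlcNAc peaks in this way at 2 (0.330%, 0.0906% to 1.20%), of which POLR2A is 1. This arrangement was counted after it had been seen at POLR2A, and these shares were not matched for width. With peaks within 500 bp merged, the O-GlcNAc peaks here join into 1 that spans the OGA peak, so the separation is not kept. The shares over all Pol II peaks were not counted with merged peaks.

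Within the POLR2A gene the only further peaks were of SPT5. Their 7 summits lay between 22.7 and 29.9 kb from the start, in a span of 30.3 kb, and none overlapped a peak of Pol II or of another list. They were lower and narrower than the SPT5 peak at the start, with fold enrichments of 2.77 to 4.12 and −log10 q values of 2.85 to 8.19. Within the SPT5 list they lay on both sides of the median fold enrichment (3.31). Their widths, 195 to 686 bp, lay on both sides of the median width (414 bp). Another Pol II peak with SPT5 crossed the upstream edge of the window, with its summit 4.58 kb before the start and fold enrichments of 4.67 and 6.73. ZBTB4 is the next protein-coding gene on that side, so these peaks cannot be assigned to POLR2A alone either.

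SUPT5H (chromosome 19, 39926000 to 39967310, plus strand) needs its start described before its peaks. The span used is 41311 bp long and the RefSeq gene in GRCh38 is 31089 bp long. For the other 4 genes the span minus the RefSeq length was between -405 and 47 bp. Counted back from the 3′ end of the span, a gene of RefSeq length begins 10222 bp after the span start, if both end at the same place. Peaks lay at both places, and they differed. The next protein-coding gene upstream in the RefSeq table is RPS16, a ribosomal protein gene on the minus strand, so the peaks near the span start cannot be assigned to SUPT5H alone.

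At the RefSeq-length start of SUPT5H all 5 lists had a peak. OGA had its high peak here, at 39935724 to 39936347, with a fold enrichment of 12.8 and a −log10 q of 145. It ranked 54 among 2561 OGA peaks and was wider than 96.4% of them. The O-GlcNAc peak (39935925 to 39936292, fold enrichment 5.07) lay entirely within it, with summits 23 bp apart, against a median of 69 bp over the 618 OGA peaks that overlap O-GlcNAc. The Pol II peak had a fold enrichment of 7.44, above 75.8% of its list, and SPT5 one of 10.9, above 94.3%. The TRIM28 peak was near its list's median, at 3.46. Relative to this start the summits lay 114 bp upstream for OGA, 91 bp upstream for O-GlcNAc, and 4, 54 and 111 bp downstream for TRIM28, SPT5 and Pol II. The OGA and Pol II summits were thus 225 bp apart, whereas at POLR2A they fell on the same base, and the median over all 1182 OGA peaks with Pol II was 136 bp. Of all Pol II peaks, 2.79% carried all 4 other targets (interval 2.57% to 3.03%), and both Pol II peaks with OGA in these windows were among them.

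Near the start of the SUPT5H span itself stood a higher Pol II peak with no OGA. Its fold enrichment was 9.50, its summit lay 862 bp into the span, and the SPT5 summit was 6 bp from it, with a fold enrichment of 11.4. TRIM28 (2.59) and O-GlcNAc (3.63) were low there, above 15.7% and 43.4% of their lists, and the TRIM28 peak was lost when a −log10 q of at least 5 was required. Between the places lay a small Pol II peak 5.14 kb into the span, with a fold enrichment of 3.22 and SPT5 as its only partner, and 3 SPT5 peaks without Pol II. From the RefSeq-length start to the 3′ end there was 1 further SPT5 peak and no Pol II peak. Beyond the 3′ end, 45.5 kb from the span start, SPT5 was high (9.97), O-GlcNAc was 4.53, Pol II was low (2.72, above 9.94% of its list) and TRIM28 was 2.79. The next gene downstream in the RefSeq table is TIMM50, on the plus strand, which codes for a subunit of the mitochondrial inner membrane import machinery.

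TRIM28 (chromosome 19, 59055836 to 59062082, plus strand) is the shortest of the 5 genes and had the highest Pol II and SPT5 peaks at a start. The Pol II peak (59055129 to 59056286) had a fold enrichment of 12.1, above 96.1% of its list. The SPT5 peak (59055119 to 59056538) had a fold enrichment of 21.0 and ranked 44 among 56040 SPT5 peaks. Its summit lay 34 bp after the start and 16 bp from that of Pol II. The TRIM28 protein was present at its own gene in 2 narrow peaks, with summits 318 bp upstream and 73 bp downstream of the span start and fold enrichments of 3.04 and 3.40, above 33.1% and 46.7% of its list. With the start placed by the RefSeq length, as for SUPT5H, both summits lay downstream, at 87 and 478 bp. At least 2 TRIM28 peaks lay under 5.84% of all Pol II peaks and under 12.3% of those in the highest height class, shares that were not matched for width either. With peaks within 500 bp merged, the 2 TRIM28 peaks at this gene join into a single peak. A single O-GlcNAc peak of 654 bp, with a fold enrichment of 4.77, overlapped both TRIM28 peaks at this gene.

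No Pol II peak lay in the TRIM28 body, and an SPT5 peak of 2165 bp with a fold enrichment of 5.63 crossed the 3′ end, its summit 230 bp beyond it. Further downstream, about 10 kb from the start, were 2 Pol II peaks (3.07 and 3.65) that overlapped 1 SPT5 peak of 12.3, with O-GlcNAc at the higher and no TRIM28. The next gene downstream in the RefSeq table is CHMP2A, on the minus strand. Neither these peaks nor the SPT5 peak across the 3′ end can thus be assigned to TRIM28 alone.

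OGT (chromosome X, 70752912 to 70795747, plus strand) had Pol II, SPT5 and TRIM28 at its start and neither O-GlcNAc nor OGA anywhere in its window. The Pol II peak (70752426 to 70753211) had a fold enrichment of 12.0, above 95.9% of its list and about as high as at TRIM28. The SPT5 peak had a fold enrichment of 9.29, and its summit lay 10 bp from that of Pol II. The TRIM28 peak covered the start, and its fold enrichment of 5.71, above 86.3% of the list, was the highest of the 12 TRIM28 peaks in these windows. Among the 1989 Pol II peaks of the same height class, 59.8% had O-GlcNAc (interval 57.6% to 61.9%) and 9.75% had OGA (8.53% to 11.1%). SPT5 and TRIM28 with neither of them stood at 25.3% of the class and at 28.4% of all Pol II peaks.

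A second, narrow Pol II peak of 207 bp lay 1008 bp after the OGT start, with a fold enrichment of 3.92 and an SPT5 peak of 3.15 over it. Along the gene were 5 SPT5 peaks without Pol II, with summits from 14.6 to 40.9 kb fold enrichments of 2.11 to 3.43 and −log10 q values of 1.66 to 5.17. SPT5 also had 2 peaks just beyond the 3′ end, with summits 315 and 1121 bp past it and fold enrichments of 4.60 and 3.53.

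OGA (chromosome 10, 103544200 to 103578222, minus strand) had the lowest Pol II fold enrichment when the highest start peak of each gene was compared, at 7.40, still above 75.5% of the list. That peak, at 103577507 to 103578766, was 1260 bp wide. SPT5 was high, at 12.2, above 96.4% of its list, and its summit lay 7 bp from that of Pol II. A pair of TRIM28 peaks stood on the 2 sides of the start, with summits 164 bp upstream (3.61) and 193 bp downstream (3.12), and neither covered it. With peaks within 500 bp merged, they join into a single peak over the start. The O-GlcNAc peak at the OGA start was the lowest of the 9 in these windows, with a fold enrichment of 2.21, above 5.10% of its list, and a −log10 q of 3.22. It was lost when a −log10 q of at least 5 was required. The nearest OGA peaks outside the window lay 617 and 718 kb from its edges.

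In the OGA gene, as in POLR2A, SPT5 without Pol II was found only in the later part of the span. All 6 such summits inside the span lay from 64.8% to 95.3% of its length, 22.1 to 32.4 kb from the start, with fold enrichments of 2.28 to 5.41 and −log10 q values of 2.79 to 18.1. An SPT5 peak of 2593 bp with a fold enrichment of 9.96 crossed the 3′ end, the widest of the 43. A Pol II peak (3.96) and an O-GlcNAc peak (4.09) overlapped it about 1 kb beyond the gene. The next gene on that side in the RefSeq table is NPM3, on the minus strand like OGA, so these peaks cannot be assigned to the end of OGA alone.

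**Figure D2:**
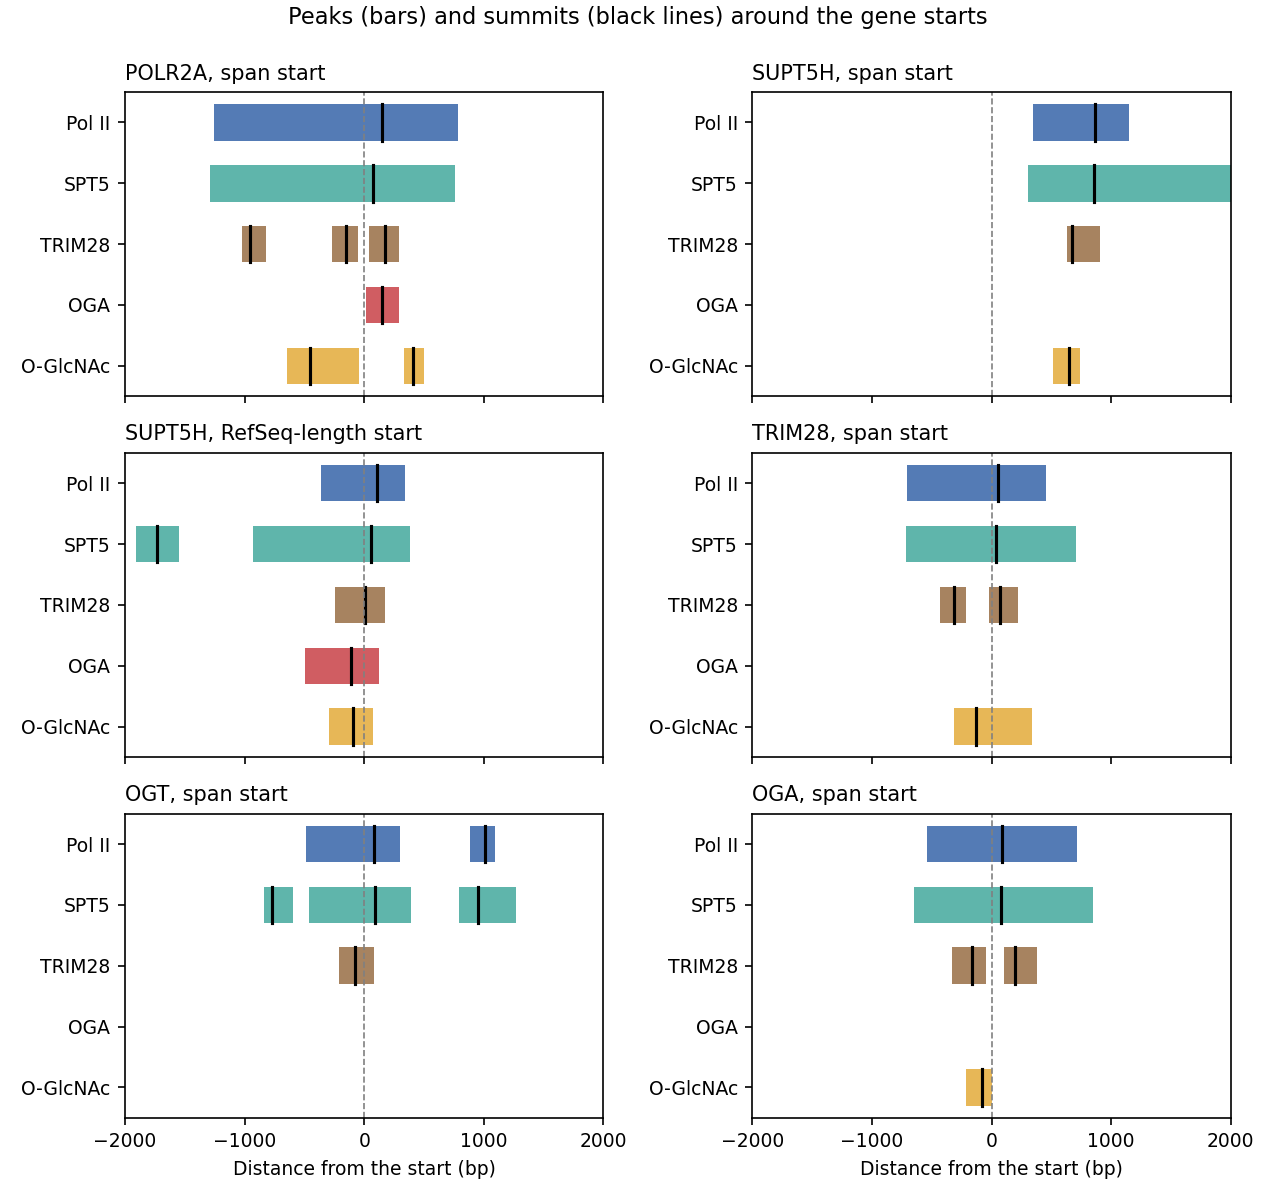
Peaks (bars) and summits (black lines) of the 5 lists within 2 kb of the start of each span, in the direction of transcription, with SUPT5H shown at both its span start, where the SPT5 bar runs past the edge of the panel, and its RefSeq-length start. Summits of overlapping Pol II and SPT5 peaks lie 6 to 79 bp apart in all 6 panels. SPT5 peaks that no Pol II peak overlaps are also drawn at OGT and at the RefSeq-length start of SUPT5H. OGA peaks appear only at POLR2A and at the RefSeq-length start of SUPT5H.

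Set side by side, the 5 starts all had Pol II, SPT5 and TRIM28 and differed in O-GlcNAc (4 of 5) and OGA (1 of 5 at the span starts, and 2 of 5 with the RefSeq-length starts). All 13 Pol II peaks of the windows overlapped SPT5, which is close to the 95.5% of all Pol II peaks that do. TRIM28 overlapped 7 of the 13, against 59.9% of all Pol II peaks, and O-GlcNAc 8, against 40.2%. OGA overlapped 2, against 6.03% of all. SPT5 and TRIM28 together overlapped 7, against 59.0% of all. With 13 peaks at 5 genes none of these counts was read as a departure from the lists. Both OGA peaks overlapped Pol II (46.2% of all OGA peaks do), SPT5 (71.9%) and TRIM28 (90.0%), and 1 of the 2 overlapped O-GlcNAc (24.1%). Of the 43 SPT5 peaks, 7 overlapped TRIM28 (30.7% of all SPT5 peaks), 8 overlapped O-GlcNAc (14.2%) and 2 overlapped OGA (3.20%).

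The starts were also read against Pol II peaks of like height, in the 3 highest of 10 height classes. In the highest, which holds the start peaks of POLR2A, TRIM28 and OGT, SPT5 overlapped 99.6%, TRIM28 77.4%, O-GlcNAc 59.8% and OGA 9.75%, and 6.33% had all 4. In the class below it, which holds the peak near the SUPT5H span start, SPT5 overlapped 99.2%, TRIM28 76.6%, O-GlcNAc 63.4% and OGA 7.14%. In the next, which holds the OGA start and the RefSeq-length start of SUPT5H, the shares were 98.7%, 73.2%, 63.0% and 7.94%. TRIM28 at all 5 starts and O-GlcNAc at 4 of them are thus what most Pol II peaks of these 3 classes have, and OGA was found at under 10% in each of the 3.

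At the gene starts that had O-GlcNAc, its highest summit lay upstream of the Pol II summit in the direction of the named gene. The highest O-GlcNAc summit preceded the Pol II summit by 610 bp at POLR2A, 202 bp at the RefSeq-length start of SUPT5H, 181 bp at TRIM28 and 170 bp at OGA, and by 212 bp near the SUPT5H span start. The exception was the second, lower O-GlcNAc peak of POLR2A, 259 bp downstream of the Pol II summit. The peaks near the SUPT5H span start cannot be assigned to SUPT5H alone, and along RPS16, on the minus strand, their order would be reversed. The upstream O-GlcNAc peak of POLR2A cannot be assigned to POLR2A alone either. Along ZBTB4, also on the minus strand, that order would be reversed too. The O-GlcNAc peak at the OGA start was lost when a −log10 q of at least 5 was required. The share of all peaks with either order was not counted. The median distance between O-GlcNAc and Pol II summits over all 7478 overlapping O-GlcNAc peaks was 156 bp, with no direction attached. All 9 O-GlcNAc peaks of the windows overlapped Pol II (80.8% of all O-GlcNAc peaks) and SPT5 (88.2%), and 6 overlapped TRIM28 (59.5%), whereas 1 overlapped OGA (6.70%).

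The 12 TRIM28 peaks were gathered at the starts and were low. Of them, 9 lay within 1 kb of a span start, 1 at the RefSeq-length start of SUPT5H and 2 downstream of a gene. Only 3 exceeded the median fold enrichment of the TRIM28 list, and their own median was 3.08. Their height was not compared with that of TRIM28 peaks that overlap Pol II. Of the 12, 11 overlapped Pol II and 11 overlapped SPT5, against 28.6% and 43.7% of all TRIM28 peaks, while 7 overlapped O-GlcNAc (13.0%) and 2 overlapped OGA (5.12%). The 11 lay under only 7 Pol II peaks, so they are not separate cases. All the windows hold a gene with Pol II at its start, so these counts were not read as a departure from the list. The TRIM28 peak that overlapped no other list lay downstream of OGA, with its summit 38.5 kb from the start and a fold enrichment of 4.40.

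**Figure D3:**
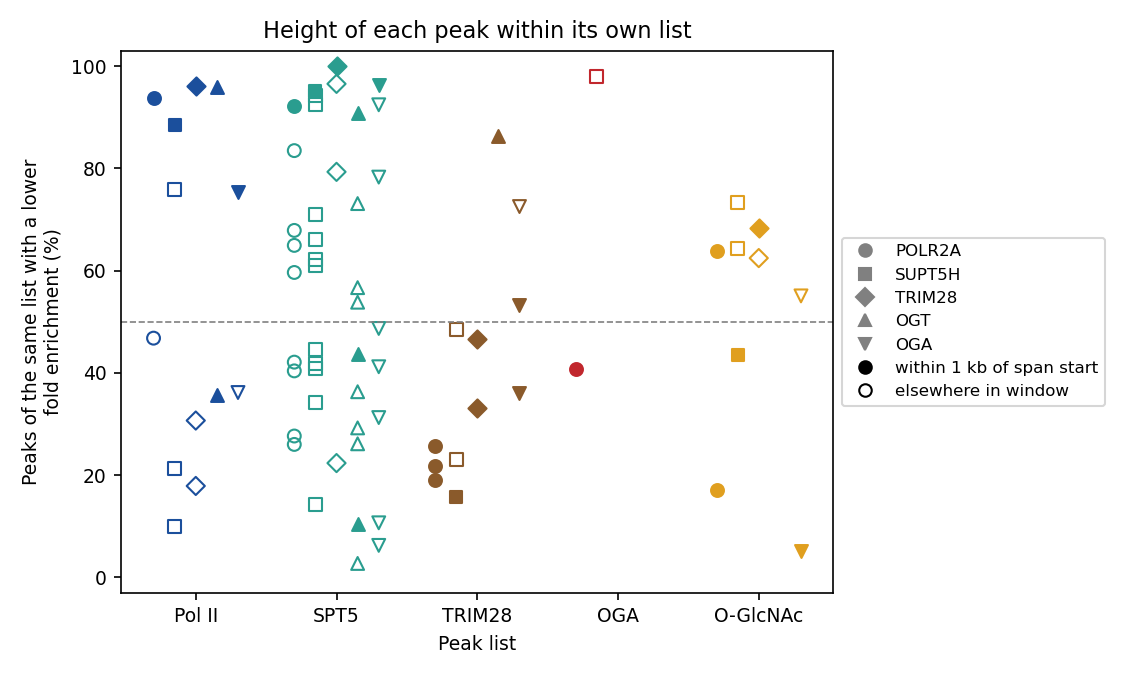
Height of each of the 79 peaks as the percentage of peaks of the same list with a lower fold enrichment (y axis), by list (x axis) and gene (marker shape), with filled markers for peaks within 1 kb of a span start. The filled Pol II markers over or near the starts lie between 75.5% and 96.1%, except the second OGT peak at 35.6%, while 9 of 12 TRIM28 markers lie below the dashed line at 50%.

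Outside SUPT5H, SPT5 was the only target with a peak lying wholly inside a gene more than 1 kb from either end, and it covered 10.0% of the 5 spans (15480 of 154668 bases). Pol II covered 2.80%, TRIM28 0.971%, O-GlcNAc 0.720% and OGA 0.583%. The lists differ in size, with 56040 SPT5 and 19889 Pol II peaks, and a missing Pol II peak cannot be read as absence of Pol II. Over chromosomes 1 to 22 and X, each taken up to its last SPT5 peak, SPT5 covered 1.24%, TRIM28 0.513%, Pol II 0.397%, O-GlcNAc 0.125% and OGA 0.0237%, so SPT5 also covered the most and OGA the least over the whole lists. By gene, SPT5 covered 17.1% of TRIM28, 12.1% of OGA, 11.6% of SUPT5H, 11.5% of POLR2A and 4.68% of OGT, the longest span. SPT5 peaks with Pol II were mostly higher and wider than those without, with ranges that overlapped. The 12 with Pol II (29.1% of all SPT5 peaks have it) had fold enrichments of 3.15 to 21.0 with a median of 9.96 and a median width of 1430.5 bp. The 31 without Pol II had fold enrichments of 2.11 to 5.63, a median of 3.09 and a median width of 308 bp. Over the whole list these medians were 7.19 and 3.01, so a difference in the same direction was present in the SPT5 list as a whole. The 2 highest SPT5 peaks without Pol II were at or near a 3′ end, at TRIM28 (5.63) and in OGA (5.41).

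**Figure D4:**
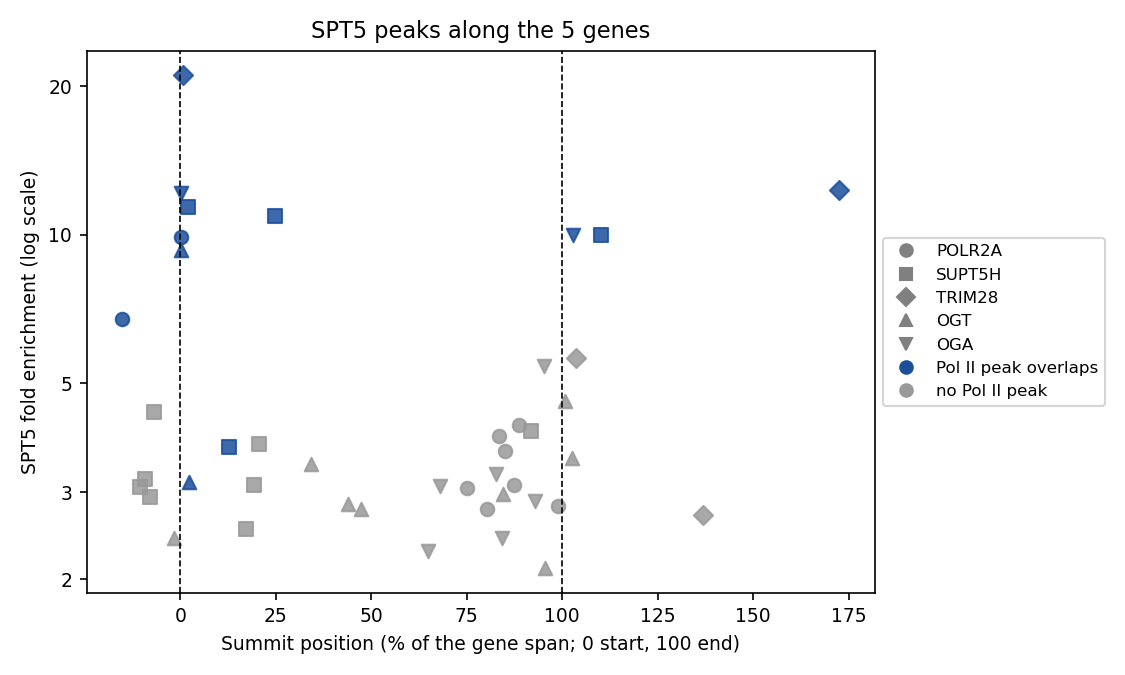
Fold enrichment of the 43 SPT5 peaks (log y axis) by summit position as a percentage of the gene span (x axis), with dashed lines at the start and end of the span, marker shapes for genes, and blue for peaks that a Pol II peak overlaps. Peaks without Pol II (grey) reach at most 5.63 and, in POLR2A and OGA, lie at 64.8% of the span or later.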

How the data were processed

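BJAB cells were fixed for 5 min in 1% formaldehyde, each precipitation used 10 µg of antibody, and 25 ng of DNA went into a library, per the labels' protocols. The submitters' processing notes name Bowtie2 2.1.0, Trimmomatic 0.30, bcl2fastq 2.17 and build hg19. The sources used here do not give the peak caller, control or threshold. The deposited fold enrichment is the authors' ratio of a peak to their background and was used only within 1 list. The deposited −log10 q is the authors' value per peak, and its smallest values, 1.30 to 1.33, lie near a q of 0.05. Summits are the authors' deposited positions, 1 per peak.

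Peaks were assigned to windows by an overlap of 1 bp, and lists were compared by an overlap of 1 bp. Shares over whole lists have 95% Wilson intervals, which cover counting error only. Peaks without replicates allow no test. The overlap code was checked on simulated lists and gave the same counts as bedtools 2.31.1 for all 20 ordered pairs of lists. Python 3.11.15, numpy 2.4.6, pandas 2.3.3 and matplotlib 3.10.9 were used. The RefSeq tables (GRCh38.p14) gave names, lengths, neighbours and promoter sequences only. With no hg19 annotation, the planned pathway genes and cell markers were not run. For each gene and list, the peak nearest the start, the highest peak and every OGA and O-GlcNAc peak were named. Members and lists were chosen with earlier results of these data known. Height classes, counts of TRIM28 peaks under a Pol II peak and the RefSeq-length start were added after seeing the data.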

Additional observations from a re-analysis of the deposited data

How the results depend on the processing

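Of 89 alternatives for 19 counts and covered lengths, 81 stayed within 1.5 times the reported value. With no flank, the windows held 8 Pol II, 6 TRIM28 and 5 O-GlcNAc peaks, and SPT5 overlapped 8 and O-GlcNAc 5 Pol II peaks, since the flanks hold the others by construction. SPT5 peaks numbered 25 with a −log10 q of at least 5 and 28 with peaks within 500 bp merged. The same merging left 12 Pol II, 9 TRIM28, 8 O-GlcNAc and 2 OGA peaks. It joined neighbouring TRIM28 peaks at POLR2A, TRIM28 and OGA, and the O-GlcNAc pair at POLR2A. With the start placed at the RefSeq gene length, chosen after seeing the data, OGA stood at the start of 2 genes, POLR2A and SUPT5H. Within 250 bp of the span start SUPT5H had no peak of any list. Both OGA peaks were left by all 5 alternatives for their count, which were the threshold, merging, no flank, a flank of 10 kb and the summit inside the window. No paired analysis was possible because each target had 1 library and no test was made. Depth is unknown, so a missing OGA or O-GlcNAc peak cannot be read as absence of binding. Leaving out a replicate was not possible with 1 library per target.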

Other observations

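The surroundings of the genes differed in how crowded they were. In the 50 kb beyond each side of the SUPT5H window lay 21 SPT5, 9 TRIM28, 8 Pol II, 2 O-GlcNAc peaks and 1 OGA peak. That OGA peak lay 25.7 kb upstream of the span start, overlapped Pol II, SPT5 and TRIM28, and had a fold enrichment of 2.28, which ranked 2409 in its list. Around OGT the same stretches held no Pol II, OGA or O-GlcNAc peak, 1 SPT5 peak and 4 TRIM28 peaks, and the nearest Pol II peaks lay 161 kb upstream and 600.2 kb downstream of the window. Around POLR2A they held 13 SPT5, 3 Pol II, 3 O-GlcNAc and 2 TRIM28 peaks, and of these TRIM28 peaks the one nearest the window, 7.85 kb downstream of it, had a fold enrichment of 11.6, higher than any TRIM28 peak within the 5 windows.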
